A study of Homo sapiens with 3 samples.

Results

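FOXA2 binding was examined around KLF4, KLF5, ELF3 and SOX9, transcription factor genes of the intestinal epithelium, in Caco2 cells, a human tumour line from a colorectal adenocarcinoma. The members are the FOXA2 peaks whose midpoint lies within 100 kb of one of these genes on hg19, 110 of 90856 peaks over both lists. Of these, 71 belong to FOXA2 ChIP-seq replicate 1 and 39 to replicate 2. Chromatin immunoprecipitation followed by sequencing (ChIP-seq) pulls down the DNA held by a protein and counts where the sequenced fragment ends (tags) pile up. The study holds 2 such FOXA2 libraries and 1 input library made without antibody, all from Caco2 cells grown in a single condition with no treatment named. The input has no values here and enters only through the authors' peak calls. Whether separate cultures were used for the libraries is not stated, so a spread between them may be technical. The lists hold no expression values, so neither the cell type nor the activity of the genes could be checked.

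FOXA2 is a forkhead factor that can bind nucleosomal DNA and is used in organs derived from the endoderm. In mouse intestine, Klf5 is most abundant in proliferating crypt cells, Klf4 in differentiated surface cells and goblet cells, and Sox9 at the crypt base, where it is needed for Paneth cells. Elf3 is an ETS factor largely restricted to epithelia, needed in mice for normal maturation of the villus epithelium.

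Replicate 1 held 26183147 tags and 63949 peaks, and replicate 2 held 15756702 tags and 26907 peaks. A peak's score is the authors' own value, its tag count scaled to 10000000 tags per library and rounded, called normalised tags below. Each unit of score equals about 2.62 sequenced tags for replicate 1 and 1.58 for replicate 2. The file headers give a calling threshold of 11 tags for replicate 1 and 10 for replicate 2. The lowest score that could be called was therefore higher in replicate 2. Where peaks of the replicates have at least 1 bp in common, the position is called a shared site, with the coordinates of replicate 1. Intervals in brackets after a score are exact 95% Poisson intervals of the approximate tags, cover counting error only and are on the score's scale. The ends of each gene were taken to the nearest kb from the given intervals. Distances carry that precision at best, and less at ELF3, whose length in its interval differs from that in RefSeq.

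The promoter sequences of KLF4 and of the downstream start of KLF5 are shown because the shared sites nearest to these genes lay at or close to their starts. Both are the 250 bases upstream of a RefSeq start on GRCh38.p14, printed 5′ to 3′ on the gene's strand. They are KLF4 at chr9:107489770-107490019 on the minus strand and KLF5 at chr13:73058755-73059004 on the plus strand.
KLF4 upstream bases: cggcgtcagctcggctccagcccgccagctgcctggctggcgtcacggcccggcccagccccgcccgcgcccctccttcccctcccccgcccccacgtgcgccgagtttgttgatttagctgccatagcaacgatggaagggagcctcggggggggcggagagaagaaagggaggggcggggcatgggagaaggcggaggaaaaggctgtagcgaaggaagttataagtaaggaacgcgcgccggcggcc
KLF5 downstream start, upstream bases: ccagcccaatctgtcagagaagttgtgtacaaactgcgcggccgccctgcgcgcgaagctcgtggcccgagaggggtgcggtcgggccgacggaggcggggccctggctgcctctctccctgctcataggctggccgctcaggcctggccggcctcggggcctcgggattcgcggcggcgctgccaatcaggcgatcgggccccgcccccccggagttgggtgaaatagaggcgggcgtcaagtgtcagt
The peaks are on hg19, and no genome of that build was used here, so how a peak overlaps these bases was not tested. The forkhead heptamer TGTTTAC was searched on both strands, as was its form TATTTAC and also the form TGTTTGC. None was found in these sequences, nor in the 250 bases before the other KLF5 start or before the ELF3 start. Any of the heptamers occurs in 8.27% of 35116 such upstream sequences. The shorter core TGTTT, which lies within the first and the last of these, was added after the sequences were seen and occurs in 40.4%. Of the KLF4, KLF5 and ELF3 sequences, only that before the upstream KLF5 start held it, with 2 matches. A missing match says only that these letters are not in this window. The 2 sequences shown are rich in G and C, at 69.2% for KLF4 and 70.8% for KLF5.

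All 4 genes had shared FOXA2 sites within 100 kb, 36 in all, but in different numbers and strengths. KLF5 had 16, ELF3 11, KLF4 5 and SOX9 4. KLF5 and ELF3 thus had many sites, KLF4 had few sites but the highest-scored site of the 4 intervals, and SOX9 had few sites of moderate or low score. In all, the replicate 1 list held 25 peaks at KLF5, 24 at ELF3, 14 at KLF4 and 8 at SOX9. The replicate 2 list held 17 at KLF5, 12 at ELF3, 6 at KLF4 and 4 at SOX9. Per 100 kb there were 7.17 shared sites at KLF5, 5.24 at ELF3, 2.44 at KLF4 and 1.94 at SOX9, against 1.04 over 11705 windows of 200 kb that hold a peak of either replicate. At least as many shared sites as at KLF5 were found in 0.0427% of these windows, and at least as many as at ELF3 in 0.786%. The figure was 13.7% for KLF4 and 20.6% for SOX9. The intervals are 205 to 223 kb long and the windows include those that cover the 4 genes, so these percentages are a background and not a test. The highest count in any window was 21.

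**Figure D1:**
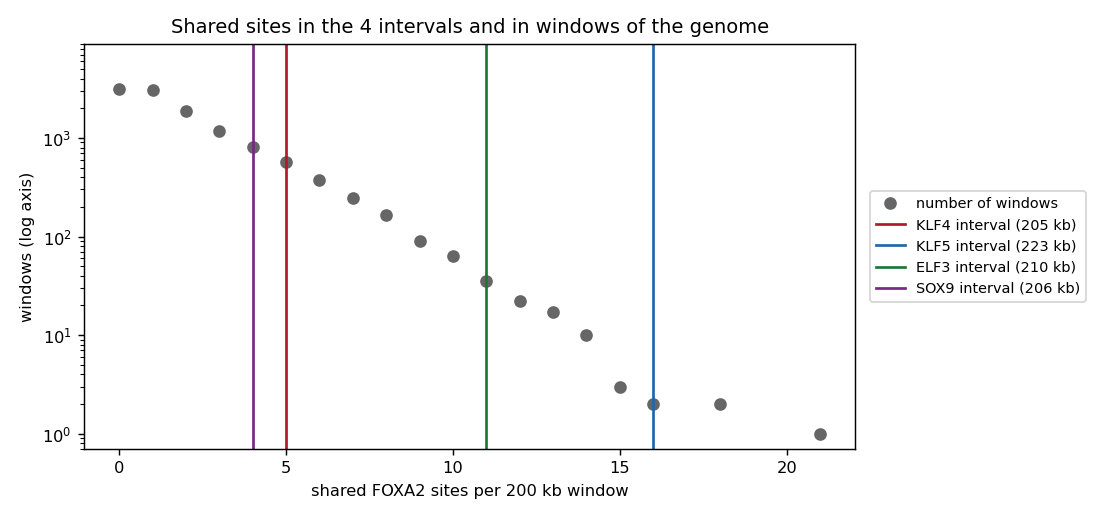
Shared FOXA2 sites in the 4 gene intervals (vertical lines) and in windows of 200 kb with a peak of either replicate. The x axis gives shared sites per window and the y axis the number of windows on a log scale; the KLF5 line, at 16, stands where few windows remain, and the SOX9 and KLF4 lines, at 4 and 5, stand among common counts.

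The mean summed score of the shared sites put KLF4 above ELF3, unlike the count, but replicate 2 alone did not. At KLF5 the summed score was 307 in replicate 1 and 321 in replicate 2. It was 215 and 147 at KLF4, 186 and 149 at ELF3, and 59 and 52 at SOX9. KLF5 lay above KLF4 in both replicates and ELF3 above SOX9, while the values of KLF4 and ELF3 overlapped. An exact two-sided permutation test over the replicates gave p = 0.333 for KLF5 against KLF4 and for ELF3 against SOX9, which is the smallest this design allows, and p = 1 for KLF4 against ELF3 (n = 2 each). The pairs were picked as neighbours in the order of these same sums, so the p-values give that order no support. Each library gives a value at every gene, which the unpaired test ignores. Paired by library, the exact permutation p was 0.5 for the first 2 comparisons, again the smallest possible, and 1 for KLF4 against ELF3. The order rests on the flank chosen. With 50 kb on each side the mean summed score was 135.5 at ELF3, 97.5 at KLF4, 73.5 at KLF5 and 55.5 at SOX9. The density per 100 kb was then 7.27 at ELF3 and 4.07 at KLF5, because most KLF5 sites lay farther out.

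**Figure D2:**
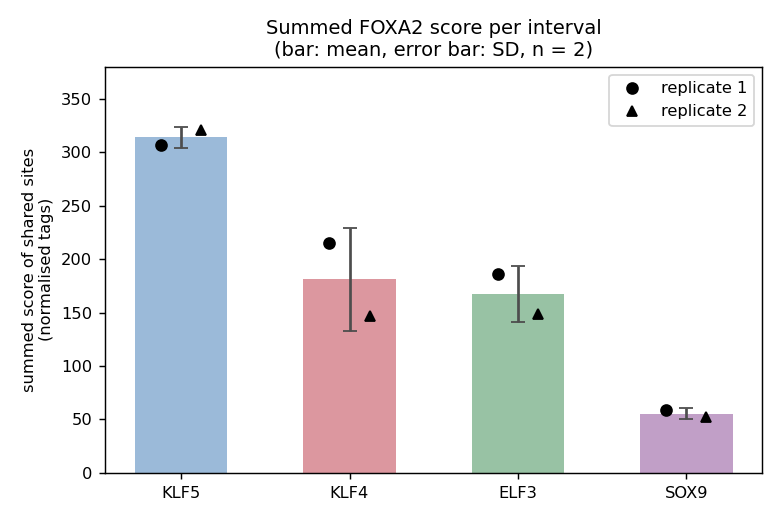
Summed score of shared FOXA2 sites in each interval, in normalised tags. Bars are means over the replicates with SD (n = 2) and points are the replicates; KLF5 is highest at 314, KLF4 (181) and ELF3 (167.5) overlap, and SOX9 is lowest at 55.5.

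At KLF4, on chromosome 9 with an interval of 110147 to 110352 kb, all 5 shared sites lay upstream of the gene or at its 5′ end. The gene runs on the minus strand. The 5 peaks downstream of the gene were found in replicate 1 alone, with scores of 4 to 13. The strongest site lay 15.3 kb upstream, at 110267228 to 110267350. It scored 112 in replicate 1 (99.5 to 126) and 62 in replicate 2 (50.3 to 75.6), a mean of 87 ± 35.4 (SD, n = 2). It ranked 559 of 24345 shared sites and held 52.1% of the summed score at KLF4 in replicate 1 and 42.2% in replicate 2. The counting intervals of the replicates do not meet, yet the log2 ratio of replicate 1 to replicate 2, 0.85, was within 0.957 SD of the median of all shared sites. The next site, 57.4 kb upstream at 110309310 to 110309432, scored 52 in replicate 1 and 43 in replicate 2 (47.5 ± 6.36). The site 98 kb upstream at 110349965 to 110350087 scored 34 in replicate 1 and 24 in replicate 2 (29 ± 7.07). A weak site at 110331533 to 110331655 scored 7 in each replicate.

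The site nearest to KLF4, at 110252123 to 110252245, was one of the weaker ones. It lay 0.2 kb upstream of the 5′ end used here, which is finer than the precision of that end, so its side is not resolved. It scored 10 in replicate 1 (6.54 to 14.6) and 11 in replicate 2 (6.45 to 17.5), and 71.6% of all shared sites had an equal or higher mean score. The replicates placed its centre at the same base. The edge of KLF4 was thus called in both replicates, with scores well below those of the site 15.3 kb away.

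KLF5, on chromosome 13 with an interval of 73529 to 73752 kb, had its many sites on both sides. Of 16 shared sites, 10 lay upstream, 1 inside the gene and 5 downstream. The upstream sites were the weaker ones, with mean scores of 8 to 21 and a median of 11.5, against 9 to 48.5 and a median of 30.5 downstream. The strongest site lay 89.4 kb downstream, at 73741343 to 73741465, and scored 41 in replicate 1 (33.6 to 49.5) and 56 in replicate 2 (44.9 to 69), a mean of 48.5 ± 10.6 (SD, n = 2). Another, 93.6 kb downstream at 73745559 to 73745681, scored 22 in replicate 1 and 32 in replicate 2 (27 ± 7.07). Both were higher in replicate 2.

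A close pair lay 61 kb downstream of KLF5. Its sites, at 73712910 to 73713032 and at 73713440 to 73713562, had centres 530 bp apart. The first scored 55 in replicate 1 and 34 in replicate 2 (44.5 ± 14.8), and the second 36 in replicate 1 and 25 in replicate 2 (30.5 ± 7.78). Each replicate called both sites of the pair, and each ranked the first above the second. A further pair, 590 bp apart at about 68 kb upstream and outside the rule for named sites, was named after its values were seen: its sites scored 7 and 12 in replicate 1, and 9 and 22 in replicate 2.

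Inside KLF5, a shared site lay 3.9 kb from the gene's upstream end, at 73632846 to 73632968. It scored 30 in replicate 1 (23.7 to 37.4) and 21 in replicate 2 (14.5 to 29.5), a mean of 25.5 ± 6.36 (SD, n = 2), and 24.2% of all shared sites had an equal or higher mean. RefSeq lists 2 starts for KLF5 that are 4.03 kb apart on GRCh38.p14, so this distance is close to that of the downstream start, whose upstream bases are printed above. Upstream of the gene, the highest mean score was 21 ± 4.24, at the site 14.2 kb away at 73614735 to 73614857, which scored 18 in replicate 1 and 24 in replicate 2.

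**Figure D3:**
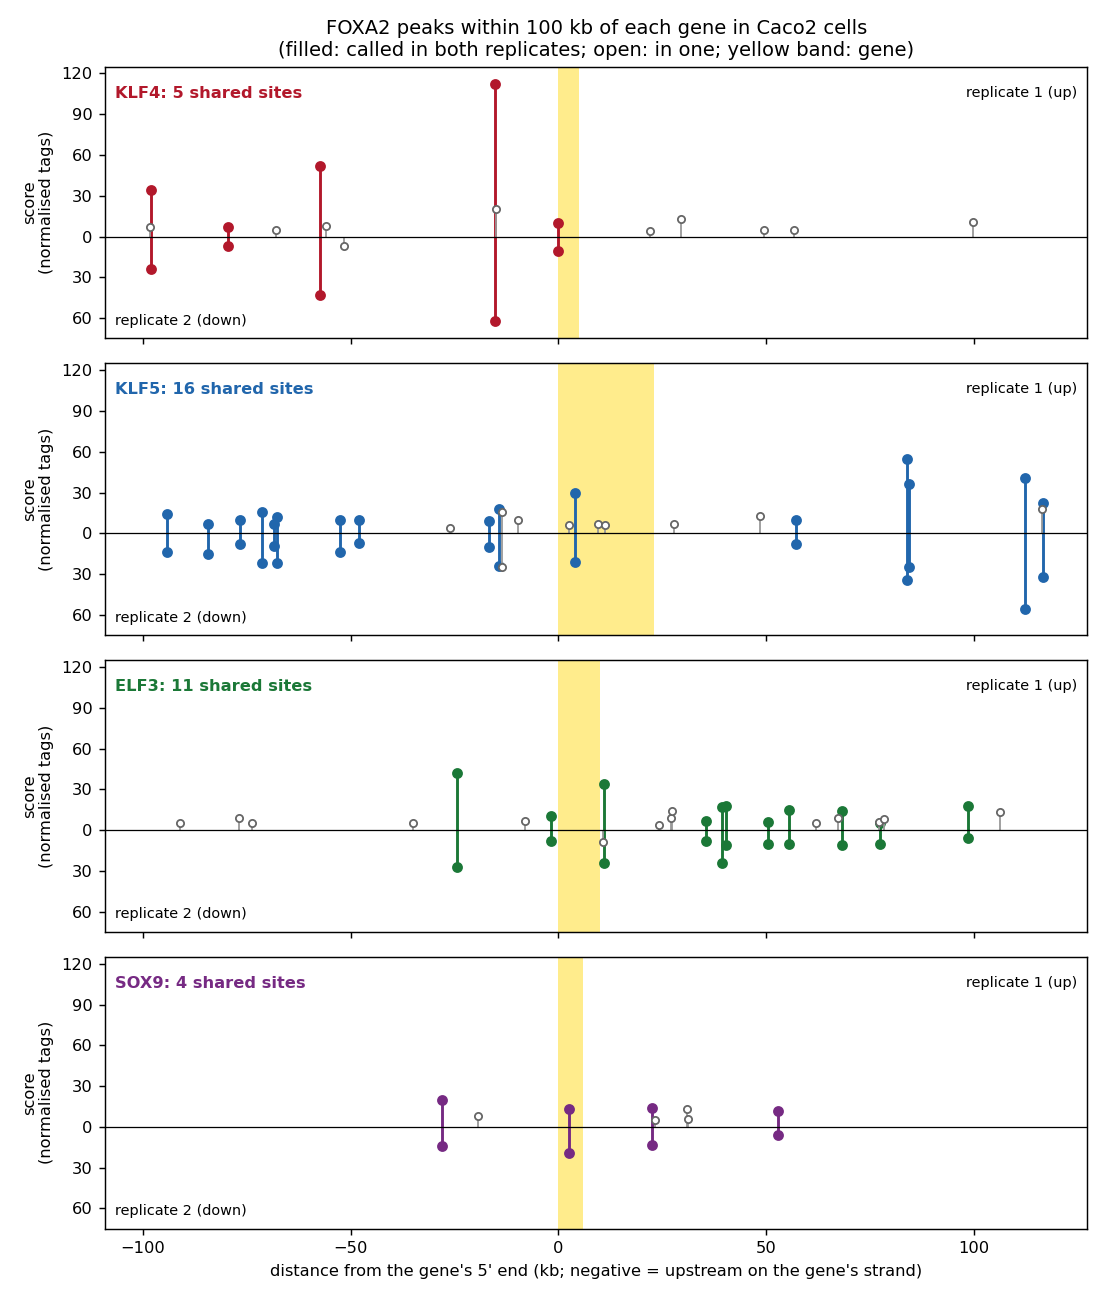
FOXA2 peaks around KLF4, KLF5, ELF3 and SOX9. The x axis is the distance in kb from each gene's 5′ end, read along its strand, and bars show the score in normalised tags, upward for replicate 1 and downward for replicate 2. Filled points are shared sites, open points are peaks of a single replicate and the yellow band is the gene. At KLF4 filled points lie only upstream or at the 5′ end, at KLF5 the tallest lie downstream, and at SOX9 there are 4 filled points.

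ELF3, on chromosome 1 with an interval of 201877 to 202087 kb, carried most of its shared sites downstream, 9 of 11, and 2 upstream. The upstream site at 201952663 to 201952785, 24.3 kb from the gene, was the strongest. It scored 42 in replicate 1 (34.5 to 50.6) and 27 in replicate 2 (19.5 to 36.4), a mean of 34.5 ± 10.6 (SD, n = 2). The next lay 1 kb beyond the 3′ end, at 201987916 to 201988038, and scored 34 in replicate 1 and 24 in replicate 2 (29 ± 7.07). Its mean lies above 14.5, the median of all shared sites. At KLF4 the nearest site above that median was the one 15.3 kb away. The other shared site near the gene, 1.7 kb upstream at 201975248 to 201975370, scored 10 in replicate 1 and 8 in replicate 2. It falls outside the rule for named sites and was named after its values were seen.

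Further downstream of ELF3 the sites were mostly weak. A pair with centres 1005 bp apart lay about 30 kb downstream, at 202016292 to 202016414 (17 in replicate 1 and 24 in replicate 2) and at 202017297 to 202017419 (18 in replicate 1 and 11 in replicate 2). The replicates ranked this pair in opposite order, by a single unit of score in replicate 1. The sites at 202032460 to 202032582 and at 202045327 to 202045449 each had a mean score of 12.5. The median over all ELF3 sites was 12.5, against 14.5 over all shared sites of the genome. On GRCh38.p14 the region within 100 kb of ELF3 is shared with other genes, whose side of ELF3 is not given here. LMOD1, TIMM17A and RNPEP are the protein-coding genes that reach within 100 kb of ELF3, PIBF1 is the one near KLF5, and KLF4 and SOX9 have none. A peak is therefore placed near a gene here and not assigned to it. The ELF3 interval counts the gene as 10 kb long, whereas RefSeq gives 6597 bp, so distances on either side of ELF3 depend on the ends used.

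SOX9, on chromosome 17 with an interval of 70017 to 70223 kb, had 4 shared sites, none with a score of at least 20 in both replicates. The highest lay 27.9 kb upstream, at 70088997 to 70089119, with 20 in replicate 1 (15 to 26.2) and 14 in replicate 2 (8.78 to 21.2), a mean of 17 ± 4.24 (SD, n = 2). An equal or higher mean score was found at 41.9% of all shared sites. A site inside the gene, 2.5 kb from its 5′ end at 70119441 to 70119563, scored 13 in replicate 1 (9 to 18.2) and 19 in replicate 2 (12.8 to 27.1), a mean of 16 ± 4.24. Their replicate values overlap, so the order of these sites is not resolved. The site 16.5 kb downstream, at 70139475 to 70139597, scored 14 in replicate 1 and 13 in replicate 2. The weakest, 46.8 kb downstream at 70169787 to 70169909, scored 12 in replicate 1 and 6 in replicate 2, a score that 99.8% of the replicate 2 list reached. No other shared site lay within 10 kb of any of the 4.

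Spacing separated the genes too. At KLF5, 14 of 16 shared sites had another within 10 kb, at ELF3 7 of 11, at KLF4 1 of 5 and at SOX9 none of 4, together 22 of 36, against 39.0% of all shared sites. More sites in an interval of similar length also leave less room between them, so spacing and number are not independent. The median distance to the nearest shared site was 4.22 kb at KLF5, 9.08 kb at ELF3, 15.1 kb at KLF4 and 25.2 kb at SOX9.

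The scores of the 36 sites were close to those of shared sites in general. Their median mean score was 13.75 (interquartile range 9 to 25.88), against 14.5 (9.5 to 24.5) over the 24345 shared sites of the genome, and 16 of 36 lay above 14.5. The genes differed: the median was 29 at KLF4, 15.5 at KLF5, 14.75 at SOX9 and 12.5 at ELF3. The gene with the most sites was thus not the one with the highest median. Sites with at least 20 in both replicates numbered 5 at KLF5, 3 at KLF4, 2 at ELF3 and none at SOX9. The share of all shared sites that reach this score in both was not computed, so these counts have no background.

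The replicates scored the 36 sites much as they scored other shared sites. The median log2 ratio of replicate 1 to replicate 2 was 0.19 with an SD of 0.61, against 0.26 and 0.62 over all shared sites. Of the 36, 4 lay more than 2-fold from the median ratio of the genome, against 9.77% of all shared sites. These were 2 KLF5 sites and 2 ELF3 sites, and the largest ratio was at the ELF3 site 88.6 kb downstream at 202075561 to 202075683, with 18 in replicate 1 and 6 in replicate 2. Of the replicate 2 list, 99.8% scored 6 or more, so this ratio rests on a value near the lowest that could be called. In all, 15 of 36 scored higher in replicate 2, against 29.7% of all shared sites. KLF5 contributed 9 of these 15, with 7 of its 10 upstream sites higher in replicate 2. The median log2 ratio was -0.26 at KLF5, against 0.27 at KLF4, 0.35 at ELF3 and 0.31 at SOX9. Neighbouring sites share a library and a region and are not independent, and no test was made of this difference. The part in it of the higher lowest callable score of replicate 2 was not tested either. Spearman's rho of the scores across the 36 sites was 0.759, and 0.777 across all shared sites. These are correlations across sites of the same 2 libraries, and each site had to pass the calling threshold in both.

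**Figure D4:**
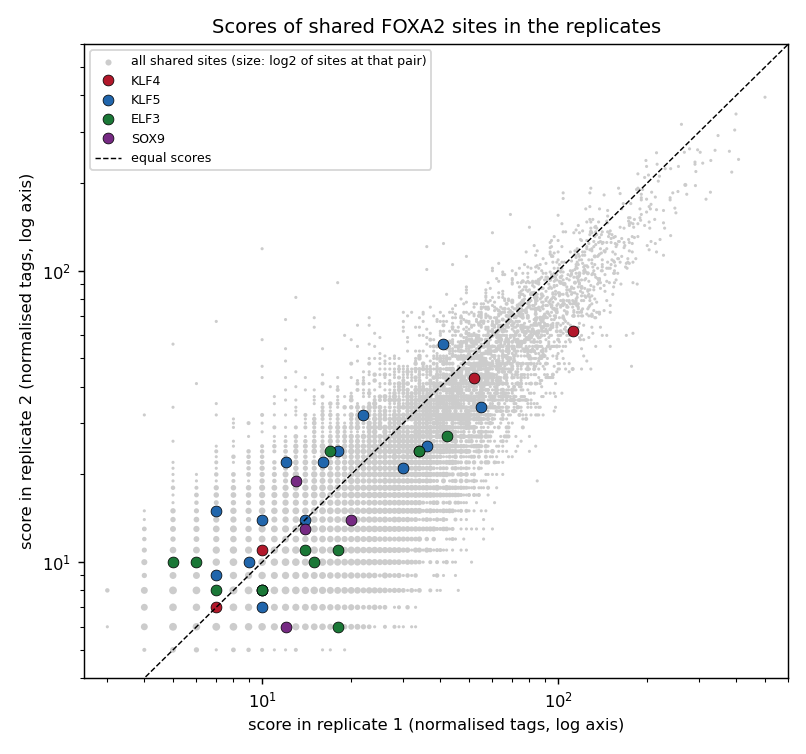
Scores of shared FOXA2 sites in replicate 1 (x axis) and replicate 2 (y axis), in normalised tags on log axes. Coloured points are the sites at KLF4, KLF5, ELF3 and SOX9, grey points all shared sites and the dashed line equal scores; the coloured points lie within the grey cloud, with the strongest KLF4 site at 112 and 62.

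Peaks of a single replicate made up the rest. Of the 71 replicate 1 peaks near the 4 genes, 50.7% were shared, against 38.1% over the whole list. Neighbouring peaks of a library are not independent, and this difference was not tested. By gene, 64% were shared at KLF5, 50% at SOX9, 45.8% at ELF3 and 35.7% at KLF4. Of the 39 replicate 2 peaks, 92.3% were shared, against 90.5%. Sharing followed the score here as in the rest of the genome. Of replicate 1 peaks with a score of 20 or more, 11 of 12 were shared, against 94.6% in the list. With scores of 10 to 19 it was 18 of 27, against 59.2%, and below 10 it was 7 of 32, against 14.0%. The peaks that replicate 2 lacked were thus mostly weak, and their absence from its list does not show absent binding. Replicate 2 had fewer tags than replicate 1 and also a lower immunoprecipitation efficiency, 5.16% against 8.72% per the file headers. The lowest score that could be called was also higher in replicate 2, so the weakest replicate 1 peaks could not be called there at the same score. The part of any of these in the missing peaks was not tested.

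The highest unshared replicate 1 peaks at KLF4 and KLF5 lay beside other called peaks. At KLF4 it was the replicate 1 peak at 110266917 to 110267039, with a score of 20, whose centre lay 311 bp from that of the strongest KLF4 site. At KLF5 the replicate 1 peak at 73745250 to 73745372 scored 18 and lay 309 bp from a shared site. In replicate 2, the KLF5 peak at 73615268 to 73615418 scored 25, and its centre lay 138 bp from that of an unshared replicate 1 peak with a score of 16. These 2 peaks do not overlap but count as the same site when midpoints within 500 bp are allowed. At ELF3 and SOX9 the highest unshared replicate 1 peaks lay beside another unshared replicate 1 peak and far from any peak of replicate 2. At ELF3 the highest unshared replicate 1 peak, at 202004307 to 202004429, scored 14. Its centre lay 243 bp from that of a replicate 1 peak with a score of 9 and 8264 bp from that of the nearest replicate 2 peak. SOX9 had a replicate 1 peak at 70147795 to 70147917 with a score of 13, whose centre lay 389 bp from that of a replicate 1 peak with a score of 6 and 8334 bp from that of the nearest replicate 2 peak. In the whole list, 66.5% of replicate 1 peaks with a score of 14 and 58.9% of those with 13 were shared. Unshared replicate 2 peaks were 1 each at KLF4 (score 7) and ELF3 (score 9), beside the one at KLF5, and none at SOX9. The centre of the nearest replicate 1 peak lay 4320 bp away for the KLF4 peak and 301 bp away for the ELF3 peak. The file headers give a minimum distance between peaks of 244 bp in replicate 1 and 300 bp in replicate 2. The part of this spacing rule in the unshared peaks was not tested.

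Peaks just inside or outside an end of an interval, within 4 kb of it, were found at KLF4 and ELF3. At the far upstream end of KLF4, the nearest peaks inside lay 1.62 kb from the limit in replicate 1, with a score of 7, and 1.96 kb from it in replicate 2, with 24. The nearest outside lay 3.75 kb beyond it in replicate 1, with 24, and 3.76 kb beyond it in replicate 2, with 14. At the downstream end of KLF4, a replicate 1 peak with a score of 6 lay 0.608 kb outside. At the downstream end of ELF3, replicate 1 peaks lay 3.76 kb inside, with a score of 13, and 0.211 kb outside, with 4.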

How the data were processed

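FOXA2 ChIP-seq peak lists of 2 replicates from Caco2 cells were used, and the input library's own values were not analysed here. Reads were aligned to hg19, and Bowtie 1.0.0 and HOMER 1.2 are named, per the submitters' processing notes. Peaks were called by HOMER findPeaks in each replicate on its own, requiring 4-fold more tags than the input and than the region of 10000 bp around, at a false discovery rate of 0.001, per the file headers. The deposited score was read as the tag count scaled by the authors to 10000000 tags and rounded: its sum, turned back into tags, is 1.004 and 1.002 times the tags in peaks of the headers. Replicate 1 peaks span 123 bp and those of replicate 2 span 151 bp, so scores are approximate between replicates.

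Each gene's interval is the gene with 100 kb on each side, and its peaks were taken by midpoint. Overlap was computed with Python 3.11.15, numpy 2.4.6, pandas 2.3.3 and scipy 1.17.1, tested on simulated data and compared with bedtools 2.31.1. Coordinates are 1-based. The members and lists were chosen with earlier results of these data known. Sites named are all shared sites of a gene with up to 8, otherwise the 6 with the highest mean score and the nearest one, and the highest unshared peak of each replicate. Neighbouring genes and promoters come from RefSeq on GRCh38.p14, where 3 of the 4 genes had a promoter entry. Related factors listed for an hg19 annotation were not analysed here. The strand of SOX9 was taken from general knowledge.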

Additional observations from a re-analysis of the deposited data

How the results depend on the processing

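Of 88 alternative values, 64 stayed within 1.5 times the count, or within the replicate SD or the binomial interval, of the value reported, or on the same side of the test's threshold, and 24 moved. Some of the 64 were bound to stay. With 2 replicates, the strongest site's score in either of them always lies within the SD of the mean. The permutation p-values could not pass the threshold either. These values therefore say nothing about stability. Requiring a score of at least 10 in both replicates left 10 sites at KLF5 and 6 at ELF3, and the share over all shared sites was not computed. The counts from a single replicate ranged from 6 to 14 at KLF4, 17 to 25 at KLF5, 12 to 24 at ELF3 and 4 to 8 at SOX9, and the densities per 100 kb from 2.93 to 6.83, 7.62 to 11.2, 5.71 to 11.4 and 1.94 to 3.88, with the higher value always that of the longer replicate 1 list. The strongest site scored 62 to 112 at KLF4, 41 to 56 at KLF5, 27 to 42 at ELF3 and 14 to 20 at SOX9 in a single replicate. With 50 kb on each side the density was 4.07 at KLF5 and 3.77 at SOX9, and with 200 kb it was 2.68 at ELF3 and 1.23 at SOX9. The mean summed score with 50 kb was 97.5 at KLF4, 73.5 at KLF5 and 135.5 at ELF3, and with 200 kb it was 375.5 at KLF4, 483 at KLF5 and 69 at SOX9. Summing all peaks gave 370 at KLF5, 221.5 at ELF3 and 71.5 at SOX9. Windows as long as the KLF5 interval put the percentage with at least as many sites at 0.0746%. The alternatives of the sums, their pairing and the windows were chosen after seeing the data. With the replicate block, the genes' sums were paired by library. The exact permutation p was then 0.5 for KLF5 against KLF4 and for ELF3 against SOX9 and 1 for KLF4 against ELF3. The smallest p these permutation tests allow is 0.333 unpaired and 0.5 paired, so no call could have changed. Of replicate 1 peaks scored below 10, 14.0% in the whole list were shared, which limits what can be said of such peaks. The part of replicate 2's fewer tags, its lower immunoprecipitation efficiency and its higher lowest callable score in this was not tested.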

Other observations

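Within 500 kb of KLF4, KLF5 and SOX9 there were stronger FOXA2 sites than within 100 kb. These distances were chosen after the values were seen. A wider interval contains the narrower one, so its highest score cannot be lower. Within 500 kb of KLF4 there were 24 shared sites, and the strongest, 330 kb upstream at 110582217 to 110582339 on chromosome 9, scored 198 in replicate 1 and 239 in replicate 2 (218.5 ± 29, SD, n = 2). It ranked 31 of 24345 shared sites. SOX9 had 5 shared sites within 250 kb and 18 within 500 kb, and the strongest of these lay 392 kb downstream at 70515100 to 70515222 on chromosome 17, with 133 in replicate 1 and 80 in replicate 2 (106.5 ± 37.5). At KLF5 a site 374 kb downstream, at 74025680 to 74025802 on chromosome 13, scored 84 in replicate 1 and 74 in replicate 2 (79 ± 7.07).

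ELF3 differed in having no further shared site between 100 and 250 kb: the count was 11 within either distance, and 13 within 500 kb. At KLF5 the count was 26 within 250 kb and 31 within 500 kb. Within 1000 kb there were 41 sites at KLF4, 41 at KLF5, 26 at ELF3 and 28 at SOX9. Per 100 kb this is 2.04 at KLF4, 2.03 at KLF5, 1.29 at ELF3 and 1.4 at SOX9. The genes were thus closer in density over the wider distance than within 100 kb. The wider intervals contain the narrower ones, so these densities are not independent, and the difference was not tested. Which gene any of these sites acts on was not tested.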
